A study of Mus musculus with 4 samples.

Results

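The mRNAs of 48 genes of DNA damage signalling and repair were followed in RNA immunoprecipitated with an anti-TSSK2 antibody from mouse germ cells. The genes were chosen by name, and all 48 were found among the 21936 genes of the count table. TSSK2 is a testis-specific serine kinase of the late chromatoid body (late-CB), a cytoplasmic RNA-protein granule of elongating spermatids, and the study asked which mRNAs associate with it. There were 2 groups, TSSK2-IP and control IgG-IP, each with 2 libraries. Both were made from germ cells of adult C57BL/6 mice, cross-linked with paraformaldehyde, and the sonicated pellet fraction of the lysate was incubated with anti-TSSK2 or with mouse IgG. No genotype or drug set the groups apart, and the antibody was the only stated difference. The sources used here do not say whether the libraries of a group came from separate mice. The p-values therefore rest on the spread between these libraries only, estimated over both groups together and shared across genes. More of an mRNA on the beads per cell and more cells that contribute it cannot be told apart in such bulk samples.

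Cells sense a double-strand break through the MRE11, RAD50 and NBN complex and the kinase ATM, and single-stranded DNA through the 9-1-1 clamp and the kinase ATR, which pass the signal to the checkpoint kinases CHEK2 and CHEK1. MDC1, RNF8, RNF168 and TRP53BP1 then assemble on the chromatin beside the break, which is rejoined by end joining or copied from a sister by homologous recombination with the BRCA proteins and the BCDX2 and CX3 complexes. Spermatocytes use much of this machinery for meiotic breaks, and elongating spermatids pass through DNA strand breaks when histones are replaced by protamines.

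The libraries held between 3938922 and 9858941 counts, and the values below are CPM (counts scaled to a common library size) after TMM normalization, on which 3 counts correspond to between 0.468 and 0.689 CPM. The control libraries differed from each other more than the TSSK2-IP libraries did. Among the 47 DNA damage genes that passed the filter on low counts, 16 differed at least 2-fold between the control libraries, 8 of them higher in IgG-IP replicate 1 and 8 in IgG-IP replicate 2, beside 16.2% and 23.7% of all 14722 genes tested. Between the TSSK2-IP libraries 1 gene differed by as much, beside 4.48% of all genes. IgG-IP replicate 1 stood apart. It held the most counts, and its TMM factor was 0.652, against 1.12 to 1.18 in the other libraries. Its CPM thus depend most on the scaling. For these reasons the leading results are also given with 1 control library at a time. Markers of spermatids summed to between 3483 and 5998 CPM and those of spermatocytes to between 723 and 1004 CPM, while those of Sertoli cells summed to between 16.7 and 51.2 CPM and those of Leydig cells to between 14.4 and 35.4 CPM. IgG-IP replicate 1 had the highest spermatid sum and the lowest Sertoli and Leydig sums. Of the 45 markers of 8 cell types, 40 could be tested, 0 passed the thresholds below, and none had 3 counts or fewer in all libraries. Higher in TSSK2-IP were 4 of 4 tested Leydig markers, 4 of 5 Sertoli, 4 of 8 spermatocyte and 3 of 10 spermatid markers. The median log2 fold changes of these markers were 0.73, 0.56, -0.07 and -0.13. In the other sets, 4 of 7 spermatogonial, 0 of 2 peritubular, 1 of 2 macrophage and 1 of 2 endothelial markers were higher. Their medians were 0.37, -0.36, -0.15 and -0.26. The part of cell composition in the results was not tested. Tssk2 mRNA itself had a log2 fold change of -1.35 (edgeR quasi-likelihood adjusted p = 0.372), which does not check the precipitation of the protein.

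None of the DNA damage genes passed both thresholds, a difference of 1 or more in size on the log2 scale and an adjusted p of at most 0.05. With edgeR's quasi-likelihood test, 0 of 47 were higher and 0 were lower in TSSK2-IP, beside 0.693% and 0% of all genes tested, and DESeq2 also called 0 in either direction, beside 0.654% of all genes higher. At an unadjusted p of at most 0.05, 5 genes (10.6%) were higher and 3 (6.38%) were lower, beside 8.34% and 4.89% of all genes. This split moved with the scaling, to 4 against 7 under the size factors of DESeq2 (6.76% and 6.94% of all genes), and to 3 against 5 under upper-quartile normalization (5.91% and 8.84% of all genes). Regardless of p, 4 of the 47 had a log2 fold change of 1 or more (11.1% of all genes) and 5 had one of -1 or less (9.88% of all genes), and 20 lay above 0 (49.2% of all genes). The 5 higher genes were Rad51b, Xrcc2, Fancc, Rnf8 and Bard1, and the 3 lower ones were Lig3, Nbn and Xrcc5. The median log2 fold change of the 47 genes was -0.18 (from -1.54 to 1.90), against -0.02 over all genes. It was 0.033 without IgG-IP replicate 1 and -0.50 without IgG-IP replicate 2, so its sign rested on IgG-IP replicate 1.

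**Figure D1:**
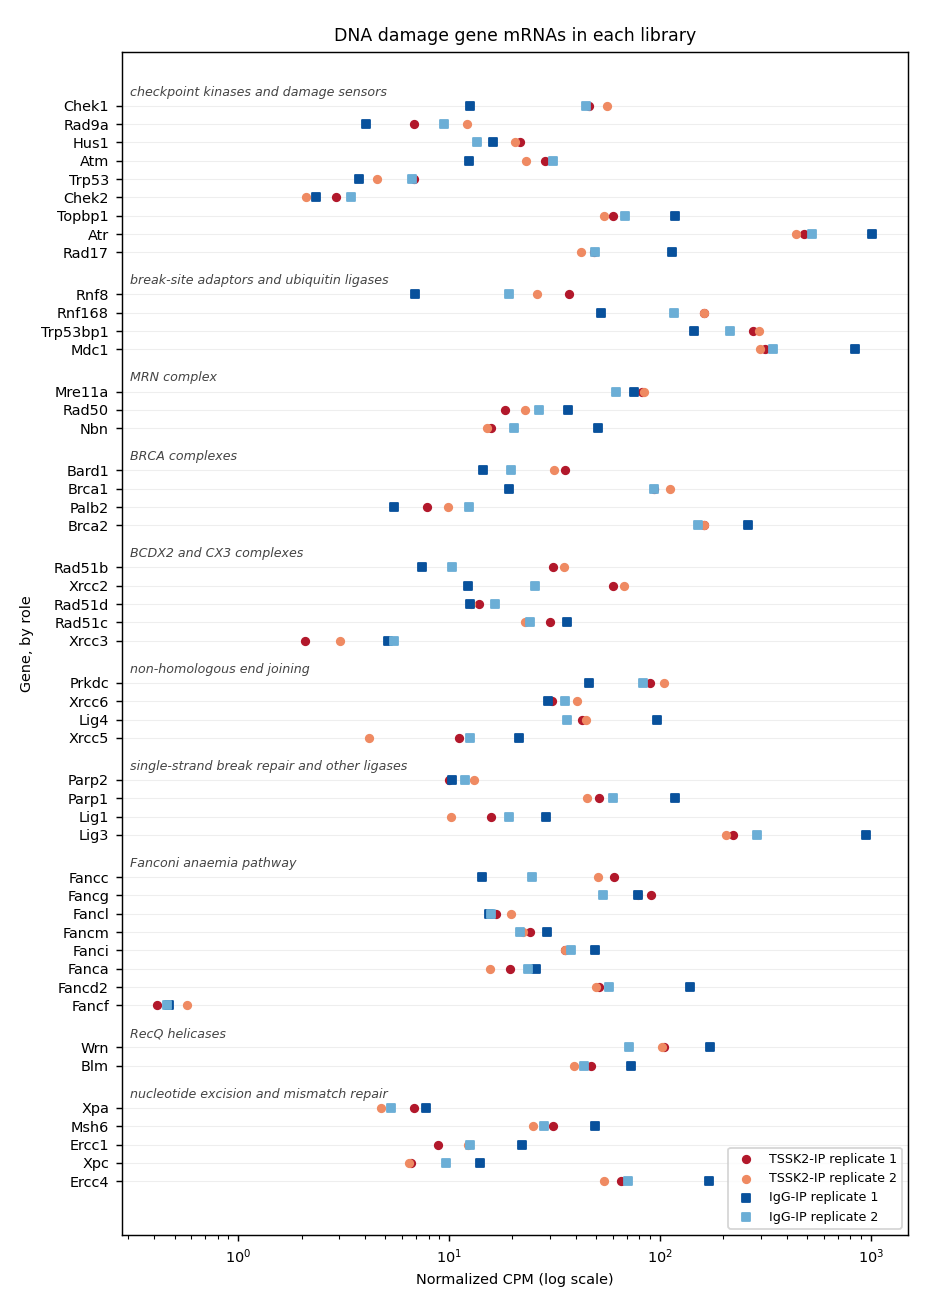
Normalized CPM (log axis) of the 48 DNA damage genes in each library, grouped by role and ordered by log2 fold change. Circles are the TSSK2-IP libraries and squares the control IgG-IP libraries, and IgG-IP replicate 1 (dark blue) is the outermost point for many genes, such as Lig3 at 953 CPM and Brca1 at 19.3 CPM.

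The BCDX2 and CX3 complexes, which act in homologous recombination and are named by letters of their subunits, included Rad51b and Xrcc2, the 2 genes with the highest fold changes of the 47 tested. Rad51b, on chromosome 12 of GRCm38 from 79297282 to 79814690, had 31.1 and 35.0 CPM in TSSK2-IP and 7.49 and 10.3 CPM in control IgG-IP. Its lowest TSSK2-IP value was thus well above its highest control value, and its log2 fold change was 1.90, or 3.72-fold, with a standard error (SE) of 0.42 and an edgeR quasi-likelihood adjusted p of 0.0606, close to the threshold on p but not past it. Xrcc2, on chromosome 5 from 25689812 to 25705825, had 60.1 and 67.9 CPM in TSSK2-IP and 12.3 and 25.5 CPM in control IgG-IP. The groups did not overlap for Xrcc2 either, with a log2 fold change of 1.77 (SE 0.45, edgeR quasi-likelihood adjusted p = 0.111). The other subunits were not alike. Rad51c, whose product joins both complexes, had 30.3 and 23.0 CPM in TSSK2-IP and 36.2 and 24.1 CPM in control IgG-IP, so the groups overlapped. Rad51d was at 13.9 and 12.7 CPM against 12.6 and 16.5 CPM, with a log2 fold change of -0.13. Xrcc3, the partner of RAD51C in the smaller complex, was scarce, with 2.07 and 3.04 CPM in TSSK2-IP and 5.15 and 5.51 CPM in control IgG-IP, and its log2 fold change of -1.05 (SE 0.69) had an adjusted p of 0.503 by the same edgeR test. Neither Rad51b nor Xrcc2 shares annotated exon bases with another gene. Both passed the thresholds without the filter on low counts, as did 1.33% of all genes, with an edgeR adjusted p of 0.0107 for Rad51b and 0.0338 for Xrcc2, and Rad51b was at 0.192 and Xrcc2 at 0.241 with upper-quartile normalization. By the methods the lysate was split between the antibodies, but no source used here says that a replicate number marks a shared lysate. With the replicate number as a block, Rad51b (edgeR adjusted p = 0.0198) and Xrcc2 (0.0268) passed, beside 1.86% of all genes, and GC and length offsets with the block added Fancc (0.0489), beside 1.58% of all genes.

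The BRCA proteins act in recombination at the break, with BARD1 as the partner of BRCA1, and PALB2 as the link between BRCA1 and BRCA2. Bard1 had 35.7 and 31.4 CPM in TSSK2-IP and 14.5 and 19.8 CPM in control IgG-IP. The groups did not overlap, and its log2 fold change was 0.97 (SE 0.40, edgeR quasi-likelihood adjusted p = 0.336), just under the fold threshold. Against either control alone it was similar, at 0.82 without IgG-IP replicate 1 and 1.14 without IgG-IP replicate 2. Brca1 had 93.7 and 112 CPM in TSSK2-IP against 19.3 CPM in IgG-IP replicate 1 and 94.0 CPM in IgG-IP replicate 2. The second control value lay between the TSSK2-IP values, so the log2 fold change of 0.86 (SE 0.59) rested on 1 control library. It was 0.19 without IgG-IP replicate 1 and 2.34 without IgG-IP replicate 2. Palb2 and Brca2 had log2 fold changes of 0.01 and -0.35, and their groups overlapped.

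Among the proteins that gather on chromatin beside a break, Rnf8 and Rnf168, which code for the ubiquitin ligases that act in turn on histones, and Trp53bp1, which favours end joining, had both TSSK2-IP libraries above both controls. Of all genes tested, 27.3% had this order. Rnf8 had 36.9 and 26.1 CPM in TSSK2-IP and 6.87 and 19.3 CPM in control IgG-IP, with a log2 fold change of 1.28 (SE 0.49, edgeR quasi-likelihood adjusted p = 0.307). It was 0.76 without IgG-IP replicate 1 and 2.12 without IgG-IP replicate 2. Of the exon bases of Rnf8, 13.2% are shared with Gm28043, annotated on the same strand, so its counts are uncertain. Rnf168 was at 163 and 161 CPM against 52.6 and 117 CPM (log2 fold change 0.94), and Trp53bp1 was at 276 and 296 CPM against 145 and 214 CPM (log2 fold change 0.67). Without IgG-IP replicate 1 these fold changes were 0.53 and 0.48, and without IgG-IP replicate 2 they were 1.55 and 0.91. For Trp53bp1, 15.0% of the exon bases overlap Tubgcp4 on the opposite strand. Mdc1, the adaptor that reads the phosphorylated histone and calls in RNF8, lay the other way. It had 313 and 298 CPM in TSSK2-IP and 841 and 345 CPM in control IgG-IP, with a log2 fold change of -0.96 that was -0.12 without IgG-IP replicate 1. In the sensor complex of the same breaks, Nbn had 15.8 and 15.2 CPM in TSSK2-IP and 50.7 and 20.4 CPM in control IgG-IP. The groups did not overlap, and the log2 fold change of -1.20 (SE 0.47, edgeR quasi-likelihood adjusted p = 0.307) was -0.34 without IgG-IP replicate 1. The partner Rad50 had a log2 fold change of -0.61 and the nuclease Mre11a one of 0.28, so the point values of the 3 subunits did not share a sign.

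**Figure D2:**
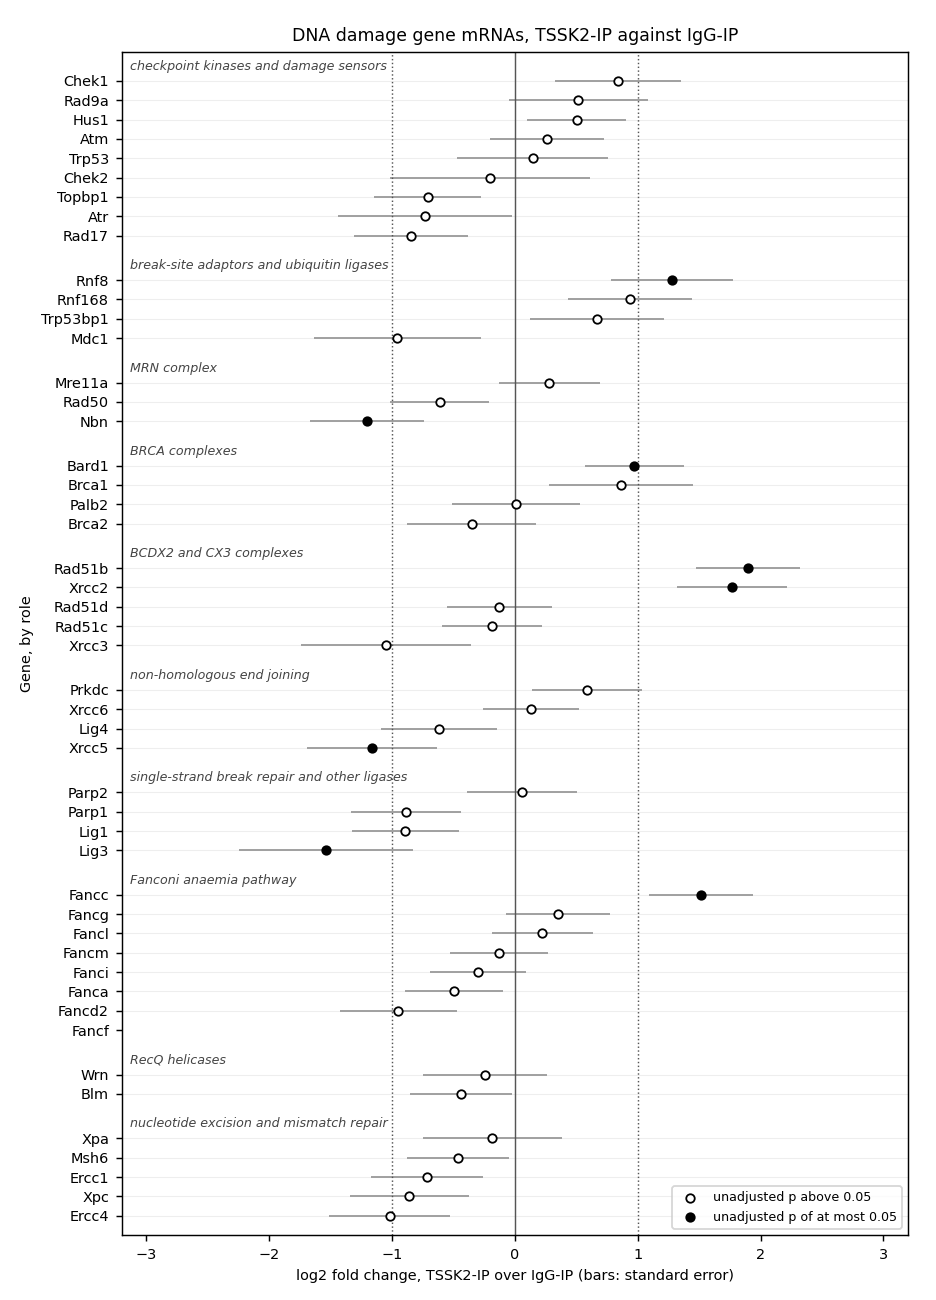
Log2 fold change of TSSK2-IP over control IgG-IP for the 47 tested DNA damage genes by role, with standard errors from the edgeR fit. Filled points are the 8 genes at an unadjusted p of at most 0.05, dotted lines mark log2 fold changes of -1 and 1, and Fancf has no point because it was not tested.

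The checkpoint kinases and damage sensors held none of the 8 genes at an unadjusted p of at most 0.05. Of the 9, 5 had a log2 fold change above 0 and 4 below 0. Chek1, the target of ATR, had 46.0 and 55.9 CPM in TSSK2-IP against 12.6 and 44.6 CPM in control IgG-IP (log2 fold change 0.84), and Atr itself had 484 and 443 CPM against 1015 and 524 CPM (log2 fold change -0.73). For both genes IgG-IP replicate 2 was close to the TSSK2-IP libraries and IgG-IP replicate 1 was far from them, in opposite directions. The exons of Atr overlap the small nuclear RNA gene Gm24004 on the same strand. Atm and Chek2, the kinases of the double-strand break branch, had log2 fold changes of 0.26 and -0.20 with overlapping groups, and Trp53, the transcription factor that both branches activate, had one of 0.14. Rad9a and Hus1, subunits of the 9-1-1 clamp, were at 0.52 and 0.50, while the clamp loader Rad17 was at -0.84 and Topbp1, which activates ATR at the clamp, was at -0.71. None of these values exceeded 2 standard errors.

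The Fanconi anaemia pathway repairs DNA crosslinks with a core ubiquitin ligase that modifies the pair FANCD2 and FANCI. Fancc, a core subunit on chromosome 13 from 63285043 to 63497278, had 60.7 and 50.6 CPM in TSSK2-IP and 14.4 and 24.8 CPM in control IgG-IP. The groups did not overlap, and the log2 fold change was 1.51 (SE 0.42, edgeR quasi-likelihood adjusted p = 0.163). Of its exon bases, 18.6% overlap other genes on the opposite strand, among them the antisense gene Gm16133, and the strand setting of the counting is not given in the sources used here. The other core subunits were closer to 0. Fancg, Fancl, Fancm and Fanca had log2 fold changes of 0.35, 0.23, -0.13 and -0.49, and Fancf, with 2 or 3 counts in every library, was too scarce to test. The substrate Fancd2 had 51.6 and 50.0 CPM in TSSK2-IP and 139 and 57.2 CPM in control IgG-IP (log2 fold change -0.95), and its partner Fanci had a log2 fold change of -0.30.

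Of the 8 genes of end joining, single-strand break repair and DNA ligation, 5 had log2 fold changes below 0, beside 50.8% of all genes tested. Lig3, the ligase of single-strand break repair and of mitochondrial DNA, had the lowest fold change of all 47 genes tested, with 223 and 205 CPM in TSSK2-IP and 953 and 288 CPM in control IgG-IP. Its log2 fold change of -1.54 (SE 0.71, edgeR quasi-likelihood adjusted p = 0.374) was -0.37 without IgG-IP replicate 1, and 25.1% of its exon bases overlap Rffl on the opposite strand. Xrcc5, which codes for the larger subunit of the Ku end-binding protein, had 11.2 and 4.19 CPM in TSSK2-IP and 21.5 and 12.6 CPM in control IgG-IP. It was the only gene of the 47 that differed at least 2-fold between the TSSK2-IP libraries, and its log2 fold change was -1.16 (SE 0.53, edgeR quasi-likelihood adjusted p = 0.365), which was -0.67 without IgG-IP replicate 1. Xrcc6, the other Ku subunit, had a log2 fold change of 0.13, Prkdc, the kinase that Ku recruits, one of 0.59, and Lig4, the ligase of this pathway, one of -0.62 that was 0.32 without IgG-IP replicate 1. The groups of Prkdc did not overlap, with 89.6 and 104 CPM in TSSK2-IP against 46.3 and 82.9 CPM in control IgG-IP. The break sensors Parp1 and Parp2, which mark nicked DNA with poly(ADP-ribose), were at -0.89 and 0.06, and the replicative ligase Lig1 was at -0.89.

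Nucleotide excision repair removes bulky lesions, and mismatch repair corrects errors of replication. All 5 genes of these pathways had log2 fold changes below 0, as did 50.8% of all genes tested, and 0 had an unadjusted p of at most 0.05. Without IgG-IP replicate 1, 2 of the 5 lay above 0, Xpa at 0.18 and Msh6 at 0.05. Ercc4, which codes for the nuclease that cuts on the 5′ side of a lesion, had 65.1 and 54.2 CPM in TSSK2-IP and 171 and 70.3 CPM in control IgG-IP (log2 fold change -1.02, edgeR quasi-likelihood adjusted p = 0.389), which was -0.18 without IgG-IP replicate 1. Its partner Ercc1 was at -0.71, the damage sensors Xpc and Xpa at -0.86 and -0.18, and the mismatch sensor Msh6 at -0.46. In normalized CPM, IgG-IP replicate 1 was the highest of the 4 libraries for all 5. For genes such as Xpa that order depends on the low TMM factor of this library. Xpa had 50 of 9858941 counts there and 33 of 4158034 in TSSK2-IP replicate 1. The RecQ helicases Blm and Wrn, which unwind recombination intermediates, were at -0.44 and -0.24, and without IgG-IP replicate 1 both had the opposite sign, at 0.03 and 0.58.

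Against each control library alone, 17 of the 47 genes were higher and 17 lower than both controls by fitted log2 fold change. The sign was thus shared for 34 of the 47, beside 9051 of the 14722 genes tested. Another 8 were higher than IgG-IP replicate 2 only and 5 higher than IgG-IP replicate 1 only. These counts by direction were not made over all genes, so they cannot be read as particular to these genes. For 41 of the 47 the difference was larger in size against IgG-IP replicate 1, with a median size of 1.06 on the log2 scale against 0.26 for IgG-IP replicate 2. The count of 41 has no counterpart over all genes here, so it cannot be read as particular to these genes. Without IgG-IP replicate 1, 3 genes passed both thresholds upward, Rad51b, Xrcc2 and Fancc, at log2 fold changes of 1.73, 1.38 and 1.22, and 0 passed downward, beside 5.38% and 2.56% of all genes tested. Without IgG-IP replicate 2, 9 passed upward and 14 downward, beside 17.9% and 17.4% of all genes tested, and Rad51b, Xrcc2 and Fancc were at 2.07, 2.31 and 1.88. A fit with a lone control assumes that it varies as the TSSK2-IP libraries do, and the 2 fits share the TSSK2-IP libraries.

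**Figure D3:**
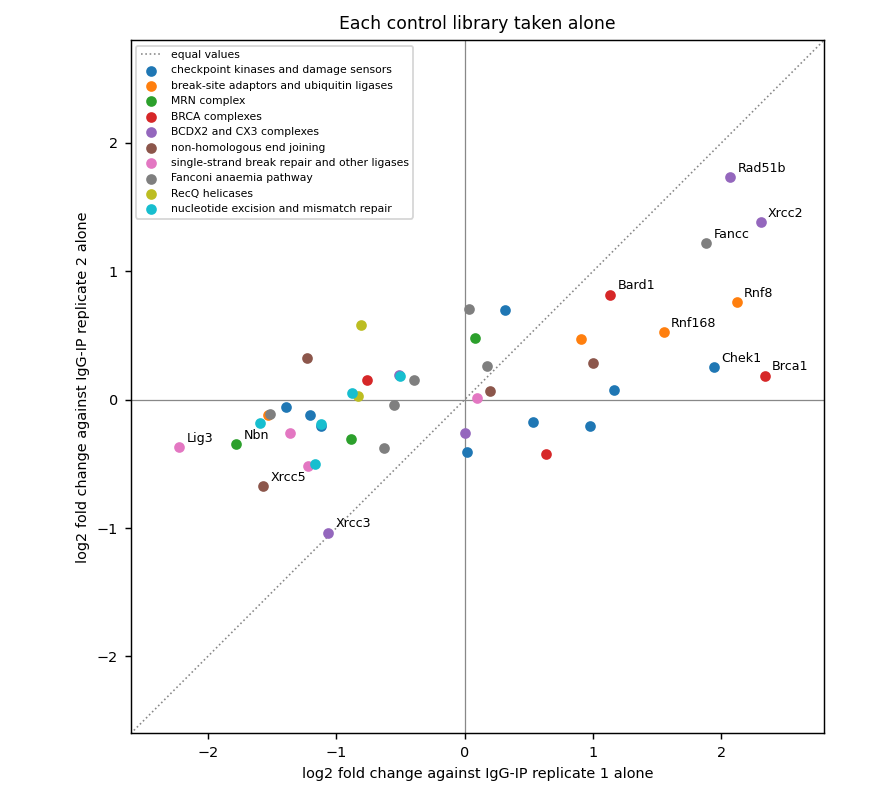
Log2 fold change of each tested DNA damage gene against IgG-IP replicate 1 alone (x axis) and against IgG-IP replicate 2 alone (y axis), coloured by role. Of the 47 points, 41 lie nearer to 0 on the y axis than on the x axis, a count not made over all genes. Rad51b, Xrcc2 and Fancc are the only ones above 1 on the y axis.

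In their order, both TSSK2-IP values exceeded both control values for 13 of the 47 genes (27.7%), beside 27.3% of all genes tested, and both were below both control values for 17 (36.2%), beside 21.6%. Of those 17, Xrcc3 was the gene whose log2 fold change differed least between the controls, at -1.04 without IgG-IP replicate 1 and -1.06 without IgG-IP replicate 2.

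Per kilobase of annotated exon, the most abundant of the 48 mRNAs in control IgG-IP were Lig3, with 131 and 39.5 CPM per kilobase, Mdc1, with 113 and 46.5, and Atr, with 43.0 and 22.2. Lig3 was above Mdc1 in IgG-IP replicate 1 and below it in IgG-IP replicate 2, so their order is not resolved, and both were above Atr in each control library. In TSSK2-IP, Mdc1 was first with 42.2 and 40.1 CPM per kilobase, followed by Rnf168 with 36.5 and 36.1 and Lig3 with 30.6 and 28.2, and these 3 did not overlap. Chek2 and Fancf were the scarcest in both groups, at a mean of 0.832 and 0.291 CPM per kilobase in TSSK2-IP and 0.964 and 0.274 in control IgG-IP. The tested genes had a median exonic length of 5494 bases and a median GC content of 46.4%, against 4519 bases and 49.4% for all genes tested. Across the 47 genes the log2 fold change had a Spearman correlation of -0.12 with GC content and of 0.09 with exonic length. The genes share the same 4 libraries, so these correlations describe them only.

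A wider list of 135 other DNA repair genes was read in the same fit, and 126 of them could be tested. With edgeR's quasi-likelihood test, 0 passed both thresholds in either direction, beside the 0.693% and 0% of all genes, and 8 (6.35%) were higher and 10 (7.94%) lower at an unadjusted p of at most 0.05, beside 8.34% and 4.89% of all genes. Their median log2 fold change was -0.07. The smallest p-values among the higher ones were those of Polh, Rmi2 and Nsmce3. Polh, which codes for the polymerase that copies past ultraviolet lesions, had 117 and 119 CPM in TSSK2-IP and 19.8 and 35.4 CPM in control IgG-IP, with a log2 fold change of 2.10 (SE 0.45, edgeR quasi-likelihood adjusted p = 0.0545). It passed with DESeq2 (adjusted p = 0.00975) but not with upper-quartile normalization (edgeR quasi-likelihood adjusted p = 0.117). Rmi2, a subunit of the complex that works with BLM, had 74 and 61 counts in TSSK2-IP and 6 and 15 in control IgG-IP (log2 fold change 2.67, with a short exon overlap with a gene on the opposite strand), and Nsmce3, of the SMC5/6 complex, had a log2 fold change of 1.39. Among the lower ones, Sfr1, which acts in homologous recombination, and Babam1, of a BRCA1-containing complex, had log2 fold changes of -1.35 and -1.31, and -0.30 and -0.41 without IgG-IP replicate 1.

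**Figure D4:**
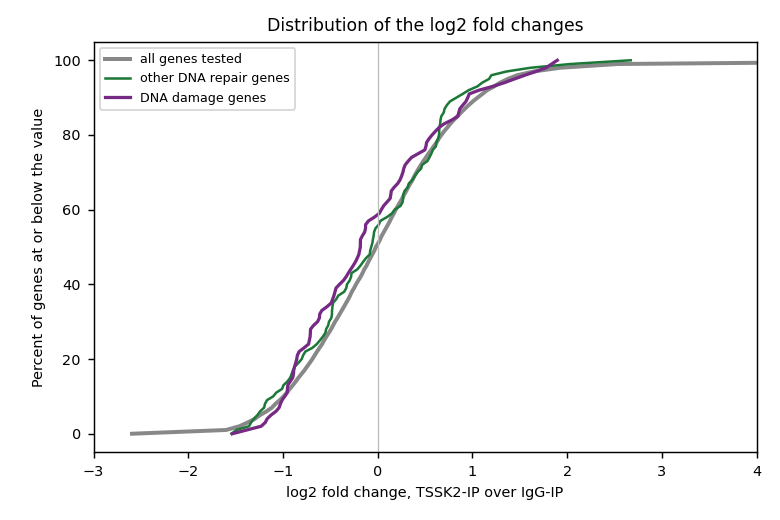
Share of genes (percent, y axis) at or below each log2 fold change (x axis) for all 14722 genes tested, the 47 DNA damage genes and the 126 other DNA repair genes. The curves cross the 50 percent level at -0.02, -0.18 and -0.07.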

How the data were processed

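Raw counts per Ensembl gene in 4 libraries were used as the authors deposited them. The authors prepared directional libraries without rRNA removal, and by the submitters' processing notes used Trimmomatic 0.39 for trimming, STAR 2.7.10a for mapping to GRCm38 and featureCounts 2.0.3 for counting. The strand setting, and what was done with reads in overlapping genes, are not given in the sources used here, so overlapping genes are uncertain. Symbols, coordinates and exonic lengths came from GENCODE vM21 (GRCm38), which held 21894 of the 21936 identifiers.

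TSSK2-IP was compared with IgG-IP in all 4 libraries with edgeR 4.0.16 in R 4.3.3 (filterByExpr, TMM, glmQLFit, glmQLFTest), with Benjamini-Hochberg adjustment over the 14722 genes kept. The fit was also run on simulated counts with the same spread in both groups. The real control libraries differed more than the TSSK2-IP libraries, so the simulation does not check the p-values given here. With 2 libraries against 2 an exact permutation test over samples cannot reach the threshold, so p-values rest on a spread shared across genes. CPM are normalized values with 2 libraries a group, and limits of 3 counts cover counting error only. The genes, lists and tests were chosen with earlier results of these data known. Every one of the 48 genes is named, and values in every library are given at least for genes past both thresholds, at an unadjusted p of at most 0.05, or among the 5 highest or 5 lowest fold changes. Of the other repair genes, those past both thresholds and the 3 with the smallest p in each direction are named, except 1 that is not reported here. Alternatives were DESeq2 1.42.0, other scalings and filters, offsets for GC content and length, removal of mitochondrial genes and Lars2, the replicate number as a block, and leaving out each library.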

Additional observations from a re-analysis of the deposited data

How the results depend on the processing

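The 10 genes with the largest or lowest fold changes or an unadjusted p of at most 0.05 were followed over 14 alternatives. Their sign was kept in each of 140 values. These genes were picked from the same libraries that the alternatives reuse, so the kept sign is not independent support. No DNA damage gene passed downward except without IgG-IP replicate 2. The number past both thresholds upward was 0 in the reported fit, 2 without the filter on low counts, 2 with the replicate number as a block and 3 with the block and GC and length offsets, and it ranged from 0 to 9 with 1 library left out (0 to 14 downward). The 2 genes with the replicate block were Rad51b and Xrcc2 (edgeR quasi-likelihood adjusted p = 0.0198 and 0.0268), and GC and length offsets added Fancc (0.0489). Same-numbered libraries deviated together with a correlation of only 0.13 over genes and the labels do not call them pairs, while the methods split a lysate between the antibodies without tying it to a number, so whether the numbers pair the libraries is not settled. At an unadjusted p of at most 0.05, the 5 higher genes became 3 with upper-quartile normalization (5.91% of all genes). The 3 lower genes (4.89% of all genes) became 7 with DESeq2's size factors (6.94%), 5 with upper-quartile normalization (8.84%) and 6 with GC and length offsets (6.77%). With 1 library left out the ranges were 2 to 12 higher and 0 to 22 lower, and the highest counts came without IgG-IP replicate 2, where 26.3% of all genes were higher and 28.4% lower. The median of the DNA damage genes was 0.033 without IgG-IP replicate 1, the only alternative that reversed its sign, and ranged from -0.50 (without IgG-IP replicate 2) to 0.033 with 1 library left out. Other DNA repair genes past both thresholds upward were 0 in the reported fit, 1 with DESeq2, 1 without mitochondrial genes and Lars2, 2 without the filter, 2 with the replicate block, 2 with the block and offsets, and 0 to 22 with 1 library left out (the 22 beside 17.9% of all genes without IgG-IP replicate 2). The shares of all genes past both thresholds upward were 0.654% with DESeq2, 0.737% without mitochondrial genes and Lars2, 1.33% without the filter, 1.86% with the block and 1.58% with the block and offsets. DESeq2's size factors moved the median of all genes by -0.12, and relative to it the DNA damage genes were at -0.18 (reported fit, -0.16). Over all genes, 102 passed upward, 139 with DESeq2, 283 without the filter and 274 with the block. Upper-quartile normalization gave 20, and at least 10 counts in every library 29. DESeq2 without genes lacking any count (chosen after seeing the data) gave 6, but Polh and others had no adjusted p. Other causes were not tested. Depth limits Fancf, Chek2, Trp53 and Xrcc3, with at most 33 counts in any library.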
